A study of Arabidopsis thaliana with 6 samples.

Results

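The clade A protein phosphatases 2C (PP2Cs) are the negative regulators at the top of the abscisic acid (ABA) pathway, and Arabidopsis has 9 genes for them. These are *ABI1* (AT4G26080), *ABI2* (AT5G57050), *HAB1* (AT1G72770), *HAB2* (AT1G17550), *HAI1* (AT5G59220), *HAI2* (AT1G07430), *HAI3* (AT2G29380), *AHG1* (AT5G51760) and *PP2CA* (AT3G11410). They were taken by locus identifier, a rule that uses no measured value, although the family was picked for description with earlier results of these data known. They are 9 of the 32833 genes in the deposited count tables. RNA-seq was performed on untreated whole seedlings at an age of 14 days, in 6 libraries: 2 of wild type (Col-0), 2 of the mutant *fio1-1* and 2 of the mutant *fio1-2*. Both mutants are impaired in FIONA1 (FIO1), a methyltransferase of RNA akin to METTL16 of humans, and flower early. *fio1-1* is a splice-site allele that removes a short stretch of the protein. The labels give no more than the name *fio1-2* for the other mutant, and it is taken here to be the allele made with CRISPR, which in the paper bears the name *fio1-5* (there *fio1-2* is a T-DNA insertion). Each library came from whole seedlings that were pooled, so fewer cells of a type and less RNA per cell cannot be told apart in any value given here. Labels and methods differ on the growth medium, soil in the former and agar plates in the latter.

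ABA is the hormone of drought, cold and seed dormancy. Without ABA, clade A PP2Cs bind the SnRK2 kinases and hold them dephosphorylated and inactive. When ABA enters a receptor of the PYR/PYL family, the receptor docks onto the phosphatase and blocks its active site, the SnRK2s become active, and they phosphorylate bZIP transcription factors of the ABF/ABI5 family and the channels of the guard cell. Several PP2C genes are themselves switched on by ABA, which makes the family a feedback brake on the response.

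The 9 proteins fall into a group of *ABI1*, *ABI2*, *HAB1* and *HAB2* and a group of *PP2CA*, *HAI1*, *HAI2*, *HAI3* and *AHG1*. Between the groups, identity of the aligned protein sequences was 36.6% to 45.1% over 20 pairs. Within the first group it was 51.3% to 79.8%, with ABI1 and ABI2 the closest pair (79.8%) and HAB1 and HAB2 at 74.8%. In the second group HAI2 and HAI3 were the closest (71.0%), PP2CA and HAI1 shared 60.9%, and AHG1 was the most distant, at 42.8% to 47.0% to each of the other members. A tryptophan of the phosphatase reaches into the ABA-bound receptor and lies next to the hormone, and the codon for it shows how AHG1 stands apart. The following 27-base coding stretches, read from the RefSeq TAIR10.1 genome in the direction of the gene, have that codon in capitals. The members shown are the 4 on which the expression results turn, with AHG1 as the exception.
ABI1: aaagtgattcagTGGaatggagctcgt
HAB1: aaagttatacaaTGGcaaggcgcacgt
PP2CA: cgagttatatatTGGgatggagctagg
HAI1: cgtgttatctacTGGgatggcccacgt
AHG1: cgagttttagtaGTGgatggagctaga
The stretches lie at chr4:13220716-13220742 (minus strand) in *ABI1*, chr1:27392333-27392359 (plus) in *HAB1*, chr3:3584621-3584647 (minus) in *PP2CA*, chr5:23895194-23895220 (minus) in *HAI1* and chr5:21027903-21027929 (plus) in *AHG1*, each within a single coding exon. TGG encodes tryptophan, which 8 of the 9 members have, at residue 300 of ABI1, 385 of HAB1 and 280 of both PP2CA and HAI1. AHG1 has GTG at residue 290, which encodes valine. AHG1 is known as a phosphatase that ABA receptors hardly inhibit and that acts mainly in seeds.

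ABA switches genes on through the ABA-responsive element, whose core is ACGTG. The 500 bases before the annotated gene start were searched on both strands for the core and for the longer forms ACGTGGC and ACGTGTC, both of which contain it. A core was present in 7 of the 9 members and in 35.5% of 27443 Arabidopsis promoters of the same length. A longer form was present in 4 members, *ABI1*, *HAB1*, *HAI2* and *PP2CA*, and in 9.10% of those promoters. The matches are shown for the 3 of these genes whose expression differed in both mutants, with 11 bases on either side, in the direction of the gene and with the motif in capitals (GACACGT and GCCACGT are the same motifs on the opposite strand).
ABI1: actcggactacGACACGTcatttaatgaa
HAB1, far: accaatatattACGTGTCaagatttcatt
HAB1, near: caaagactaatACGTGTCcttttattaat
PP2CA, far: actgtgattggGCCACGTtaacggcgtat
PP2CA, near: caccaaacggtACGTGTCggatcctgccc
In TAIR10.1 these lie at chr4:13222647-13222675 (minus) for *ABI1*, chr1:27389483-27389511 and chr1:27389918-27389946 (plus) for *HAB1*, and chr3:3586064-3586092 and chr3:3585943-3585971 (minus) for *PP2CA*. The first base of the motif was 288 bases before the start of *ABI1*, 454 and 19 bases before that of *HAB1*, and 231 and 110 bases before that of *PP2CA*. *HAI1* and *ABI2* had no core in this window. The motif was thus found in front of genes that fell in the mutants (*ABI1*, *HAB1*) as well as of one that rose (*PP2CA*), and a match is only a description of the letters.

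Total counts were 9717111 to 13055457 per library, and 21268 genes passed the filter on low counts, 6 of the 9 members among them. *HAI2*, *HAI3* and *AHG1* did not pass it, with 37, 17 and 23 reads in all 6 libraries together. Levels are given as CPM (each count relative to the size of its library) scaled by TMM, a factor that corrects for differences in library composition. *FIO1* (AT2G21070) itself was at 8.95 to 11.1 CPM in wild type, at 8.24 to 8.54 CPM in the *fio1-1* libraries and at 6.97 to 8.65 CPM in those of *fio1-2*, which does not check the labels, since neither lesion has to remove the transcript. Some sums of tissue marker genes differed between genotypes. The summed level of 16 seed marker genes (storage proteins, oleosins, EM proteins and embryo regulators) was 3.66 to 3.78 CPM in wild type, with 8 of the 16 at 0 in each library, 44.0 to 47.2 in *fio1-1* and 8980 to 9297 in *fio1-2*. The sum of 11 root markers was 1843 to 1872 CPM in wild type, 1937 to 1978 in *fio1-1* and 2496 to 2572 in *fio1-2*. That of 4 leaf markers was 36580 to 36670, 43980 to 46540 and 38780 to 38820 CPM, that of 7 guard cell markers 181.7 to 184.4, 172.9 to 193.0 and 153.2 to 170.6 CPM, and that of 5 flower markers 7.87 to 8.18, 7.45 to 8.54 and 17.4 to 18.4 CPM. Single genes made up most of some sums. In the same order, *SEP3* gave 7.23, 7.79 and 17.0 CPM of the flower sum. *BGLU23* gave 1596, 1692 and 2191 CPM of the root sum. *GC1* gave 119, 129.9 and 107.4 CPM of the guard cell sum. Of the 7 guard cell markers, only *MYB60* differed from wild type at an adjusted p under 0.05 (limma-voom, described below). It was lower in *fio1-1* and in *fio1-2* (log2 fold change -0.68 and -0.56). Among the leaf markers in *fio1-2*, *RBCS1A* and *GLDP1* were lower than in wild type (log2 fold change -0.25 and -0.27). *CAB1* and *RCA* were higher there (0.31 and 0.13). The part of these shifts in the results below was not tested.

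In wild type the family was dominated by *ABI1*. Per kilobase of exon, the *ABI1* level was 34.2 ± 1.21 CPM (SD, n = 2), followed by *HAB1* with 13.4 ± 0.250, *HAB2* with 12.9 ± 0.209 and *PP2CA* with 12.6 ± 0.821. *HAB2* and *PP2CA* overlapped between libraries and could not be put in order. *ABI2* followed at 4.37 ± 0.918 and *HAI1* at 0.591 ± 0.143 CPM per kilobase, and *HAI2*, *HAI3* and *AHG1* were each below 0.4 in both libraries. In *fio1-1* the order began with *PP2CA* (23.1 ± 1.72 CPM per kilobase), ahead of *ABI1* (17.2 ± 1.04), *HAB2* (11.4 ± 0.0300) and *HAB1* (6.89 ± 0.153), with no overlap between these neighbours. In *fio1-2* *PP2CA* (25.2 ± 1.03) and *ABI1* (24.4 ± 0.0737) overlapped at the top, ahead of *HAB2* (14.5 ± 0.850) and *HAB1* (7.66 ± 0.335). *ABI2* and *HAI1* held the fifth and sixth places in all 3 genotypes.

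**Figure D1:**
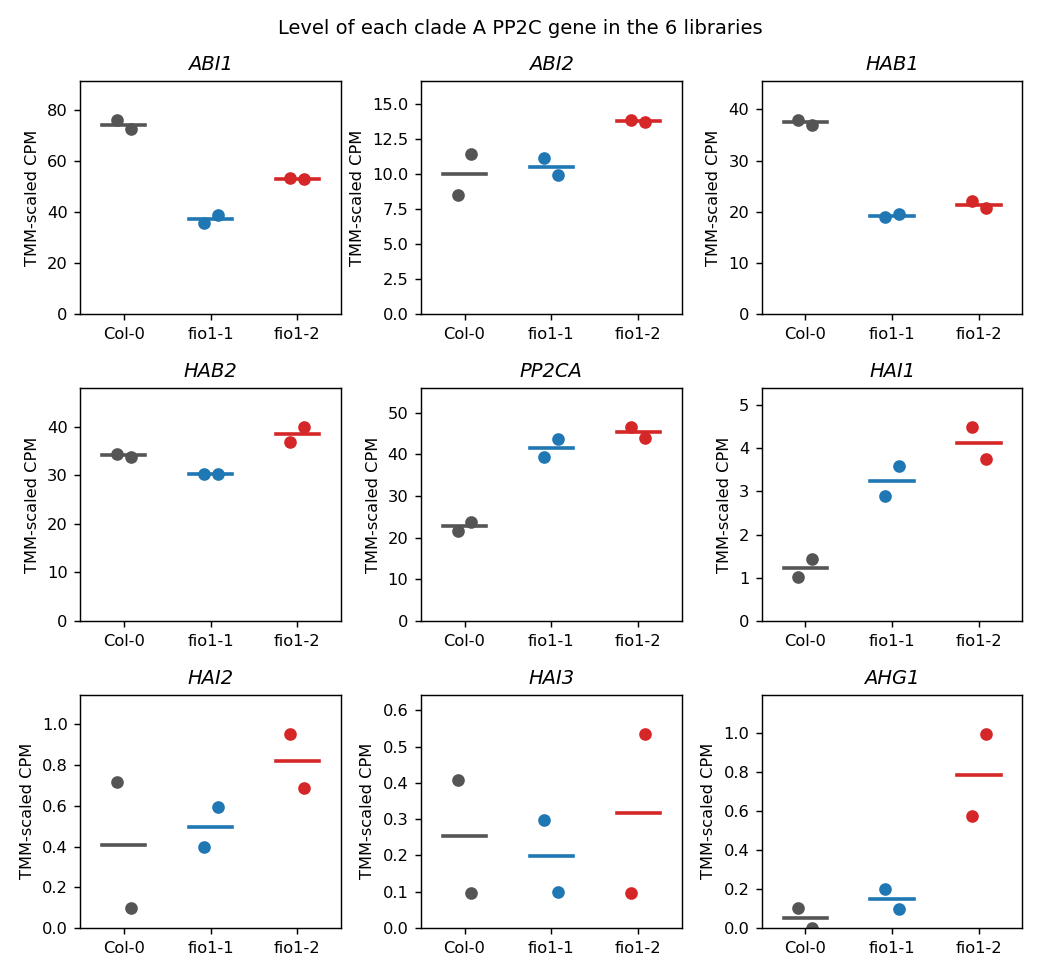
Level of each of the 9 clade A PP2C genes in TMM-scaled CPM (vertical axis, from 0, own scale in each panel) in the 2 libraries of Col-0, *fio1-1* and *fio1-2* (points), with the mean of each genotype as a bar. *ABI1* and *HAB1* were lower in all 4 mutant libraries than in wild type, and *PP2CA* and *HAI1* were higher. The 3 genes in the bottom row had at most 13 reads in a library.

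*fio1-1* was compared with wild type to ask how clade A transcripts stood when FIO1 was impaired. *ABI1* and *HAB1* fell and *PP2CA* and *HAI1* rose, while *ABI2* and *HAB2* did not pass the test. Passing means an adjusted p under 0.05 from limma-voom, with Benjamini-Hochberg adjustment over all 21268 genes, and a gene is called when its log2 fold change is also at least 1 in size. Of the 6 tested members 2 passed as higher and 2 as lower, where 14.2% of all tested genes passed as higher and 14.3% as lower. Only *HAI1* was called, where 4.91% of all genes were. The median log2 fold change of the 6 members was -0.04, beside 0.0075 for all tested genes.

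*fio1-2* was compared with the same wild-type libraries, so that the 2 comparisons are not independent of each other. Here *ABI1* and *HAB1* fell, and *PP2CA*, *HAI1* and *ABI2* rose. Of the 6 tested members 3 passed as higher and 2 as lower, where 16.4% and 16.1% of all tested genes did. *HAI1* was again the 1 member called, where 5.93% of all genes were. The median of the members was 0.33 beside 0.0027 for all tested genes.

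*ABI1*, the founding member, whose dominant mutant form makes plants insensitive to ABA, had 75.9 and 72.2 CPM in wild type, compared with 35.6 and 38.8 in *fio1-1* and 53.1 and 52.9 in *fio1-2*. No pair of genotypes overlapped, with *fio1-1* lowest and *fio1-2* in between. For 2 libraries against 2, an exact permutation test of such a separation cannot give a p below 0.33. The share of all tested genes without overlap was not determined, so overlap is given here and below only as a description. The log2 fold change against wild type was -0.99 (SE 0.0811, adjusted p = 9.08e-17) in *fio1-1*, a level 1.99 times lower, and -0.48 (SE 0.0710, adjusted p = 6.72e-08) in *fio1-2*. In *fio1-1* the value lay just short of the 2-fold limit, and it passed that limit when total counts alone were used for scaling, or without wild-type replicate 2 or *fio1-1* replicate 2. *ABI1* (AT4G26080, chr4:13219915-13222376, minus strand) shares 22 exon bases with AT4G26070 on the opposite strand. It is not stated whether the counting used strand, and these bases are a small part of the 2169 exon bases of *ABI1*.

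*HAB1*, named for the hypersensitivity to ABA of plants that lack it, had 37.9 and 36.9 CPM in wild type, with 19.0 and 19.6 CPM in *fio1-1* and 22.1 and 20.7 in *fio1-2*. Both mutants lay far below wild type and close to each other. The log2 fold change was -0.96 (SE 0.109, adjusted p = 3.78e-11) in *fio1-1* and -0.81 (SE 0.101, adjusted p = 5.93e-10) in *fio1-2*. Its nearest relative *HAB2* had 34.4 and 33.7 CPM in wild type, compared with 30.2 and 30.3 in *fio1-1* and 36.8 and 40.0 in *fio1-2*. *HAB2* libraries did not overlap between genotypes, but neither mutant passed the test against wild type, with -0.17 (95% CI -0.37 to 0.03, adjusted p = 0.198) in *fio1-1* and 0.18 (-0.003 to 0.36, adjusted p = 0.128) in *fio1-2*. The count ratio of *HAB2* to *HAB1* was 0.908 and 0.912 in wild type, 1.59 and 1.55 in *fio1-1*, and 1.67 and 1.93 in *fio1-2*, so that *HAB2* exceeded *HAB1* in each of the 4 mutant libraries and in neither wild-type library.

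*ABI2*, the closest relative of *ABI1*, was less abundant and less certain. It had 8.48 and 11.5 CPM in Col-0, next to 11.1 and 9.93 CPM in *fio1-1* and 13.9 and 13.7 in *fio1-2*. Wild type and *fio1-1* overlapped, and *fio1-2* was above both. The log2 fold change was 0.09 (95% CI -0.26 to 0.43, adjusted p = 0.763) in *fio1-1* and 0.47 (SE 0.159, adjusted p = 0.0163) in *fio1-2*. The rise in *fio1-2* did not pass with DESeq2 (adjusted p = 0.158) and was 0.27 (adjusted p = 0.348 from limma-voom) without wild-type replicate 1. It missed the threshold too without *fio1-2* replicate 1 (0.0533) or replicate 2 (0.0617), and in *fio1-1* the sign turned without wild-type replicate 1 (-0.12).

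*PP2CA*, also known as AHG3, acts on SnRK2s and on ion channels of guard cells as well as in seeds. It had 21.7 and 23.8 CPM in wild type, compared with 39.3 and 43.7 in *fio1-1* and 46.6 and 44.0 in *fio1-2*. All 4 mutant libraries were above both wild-type libraries, and the 2 mutants did not overlap. The log2 fold change was 0.87 (SE 0.104, adjusted p = 1.92e-10) in *fio1-1*, a level 1.82 times that of wild type, and 0.99 (SE 0.0999, adjusted p = 4.48e-13) in *fio1-2*, 1.99 times that of wild type. The value in *fio1-2* passed the 2-fold limit with upper-quartile scaling and without wild-type replicate 2 or *fio1-2* replicate 2.

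*HAI1*, the first of the 3 HIGHLY ABA-INDUCED genes, which is also known from leaf senescence, was rare in wild type, with 10 and 15 reads. It had 29 and 36 reads in *fio1-1* and 47 and 49 in *fio1-2*. In CPM these were 1.02 and 1.44 in wild type, 2.88 and 3.58 in *fio1-1*, and 4.49 and 3.75 in *fio1-2*, and the groups did not overlap. The log2 fold change was 1.36 (SE 0.406, adjusted p = 0.00722) in *fio1-1* and 1.69 (SE 0.386, adjusted p = 0.000314) in *fio1-2*, the largest of any tested member in both mutants. The wide errors go with the low counts, and in *fio1-1* the call was lost without wild-type replicate 1 (1.13, adjusted p = 0.105) or without *fio1-1* replicate 2 (1.203, adjusted p = 0.0653). In *fio1-2* it held in each setting tried.

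**Figure D2:**
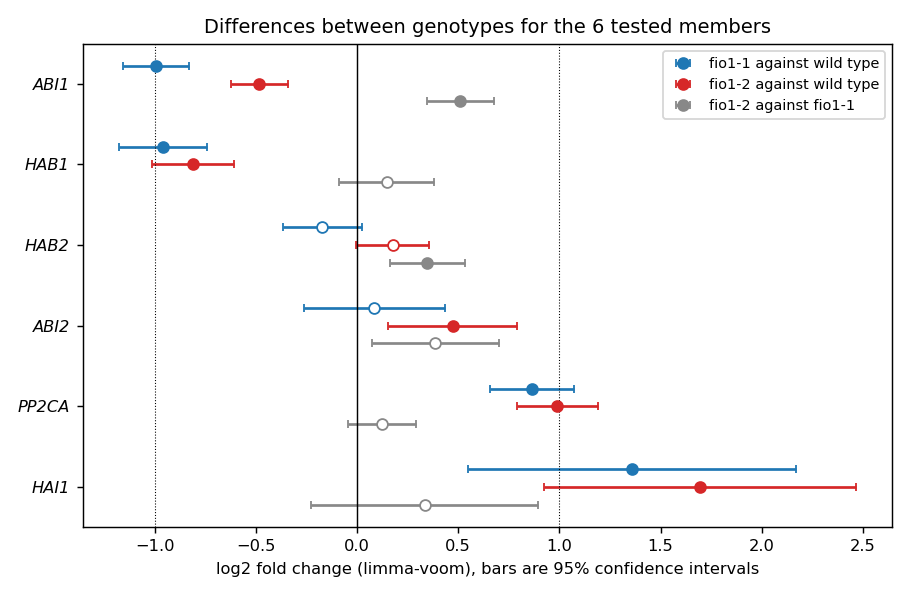
Log2 fold changes from limma-voom for the 6 tested members (horizontal axis) with 95% confidence intervals, for *fio1-1* against wild type (blue), *fio1-2* against wild type (red) and *fio1-2* against *fio1-1* (grey). Filled points passed an adjusted p of 0.05, open points did not, and dotted lines mark a 2-fold change. *ABI1* and *HAB1* lie to the left of 0 in both mutants, and *PP2CA* and *HAI1* to the right.

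*HAI2* and *HAI3*, the other HIGHLY ABA-INDUCED genes, were close to the limit of detection. *HAI2* had 7 and 1 reads in wild type, 4 and 6 in *fio1-1* and 10 and 9 in *fio1-2*. *HAI3* had 4 and 1, 3 and 1, and 1 and 7 reads in the same order. For both genes the library counts of *fio1-1* overlapped those of wild type. No difference from wild type was established for either gene at this depth, and a change like that of *HAI1* is still within the intervals. The ratio of *fio1-2* to wild type was 2.04 for *HAI2* (95% interval 0.851 to 5.38, exact conditional on the summed counts) and 1.37 for *HAI3* (0.396 to 5.33). These intervals cover counting error only.

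*AHG1*, the member with valine in place of the tryptophan, had 1 and 0 reads in wild type, 2 and 1 in *fio1-1* and 6 and 13 in *fio1-2*. Both *fio1-2* libraries were above the other 4. The ratio of *fio1-2* to wild type was 16.3 (2.59 to 677.1, from 19 reads against 1) and that of *fio1-2* to *fio1-1* was 5.42 (1.60 to 28.6, from 19 against 3), while *fio1-1* to wild type was 3.01 (0.241 to 158, from 3 against 1). *AHG1* is a seed-type gene, and the seed markers named above were also far higher in *fio1-2* than in *fio1-1*. They summed to 8980 and 9297 CPM in *fio1-2* and to 47.2 and 44.0 CPM in *fio1-1*. Some of these markers passed the filter on low counts only through *fio1-2*, and a link with *AHG1* was not tested. At 0.573 and 0.995 CPM in *fio1-2*, *AHG1* was nevertheless a very small part of the family there.

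**Figure D3:**
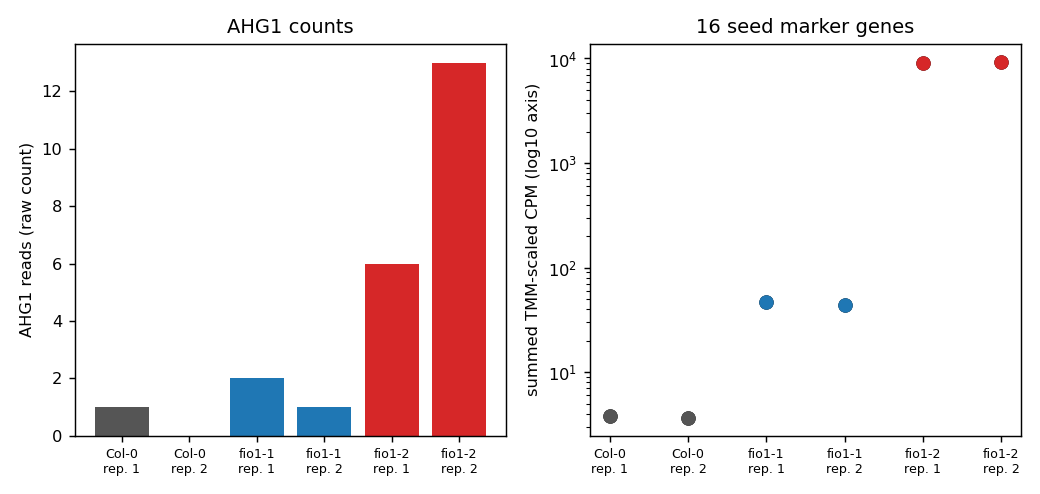
Left, raw reads of *AHG1* in each library (vertical axis from 0). Right, the summed level of 16 seed marker genes in TMM-scaled CPM on a log10 axis, in the same libraries, with Col-0 in grey, *fio1-1* in blue and *fio1-2* in red. *AHG1* had 6 and 13 reads in *fio1-2* and at most 2 elsewhere, and the seed markers summed to 8980 and 9297 CPM in *fio1-2* and to at most 47.2 elsewhere.

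The make-up of the family thus differed between wild type and both mutants. *ABI1*, *ABI2*, *HAB1* and *HAB2* together gave 156.8 and 154.3 CPM in wild type, with 95.9 and 98.6 CPM in *fio1-1*, and 125.8 and 127.3 in *fio1-2*. *PP2CA*, the HAI genes and *AHG1* together gave 23.9 and 25.4, 43.1 and 48.1, and 52.7 and 49.98 CPM. The share of the latter in all clade A counts was 13.7% ± 0.635 (SD, n = 2) in wild type, as against 31.9% ± 1.25 in *fio1-1* and 28.9% ± 0.947 in *fio1-2*. The sum of all 9 members was 180.2 ± 0.734 CPM in wild type, as against 142.8 ± 5.45 in *fio1-1* and 177.9 ± 0.905 in *fio1-2*. The sum in *fio1-2* was thus within a few CPM of wild type, although its parts differed. The count ratio of *PP2CA* to *ABI1* was 0.285 and 0.329 in wild type, 1.10 and 1.13 in *fio1-1* and 0.878 and 0.832 in *fio1-2*. That of *PP2CA* to *HAB1* was 0.571 and 0.643 in wild type, compared with 2.07 and 2.23 in *fio1-1* and 2.11 and 2.12 in *fio1-2*. Each ratio uses raw counts of a single library, so no scaling factor enters it. Both ratios were higher in all 4 mutant libraries than in wild type, and the mutants overlapped only in the ratio to *HAB1*. With 2 libraries against 2 an exact permutation test cannot give a p below 0.33, and none was made for sums, shares and ratios.

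**Figure D4:**
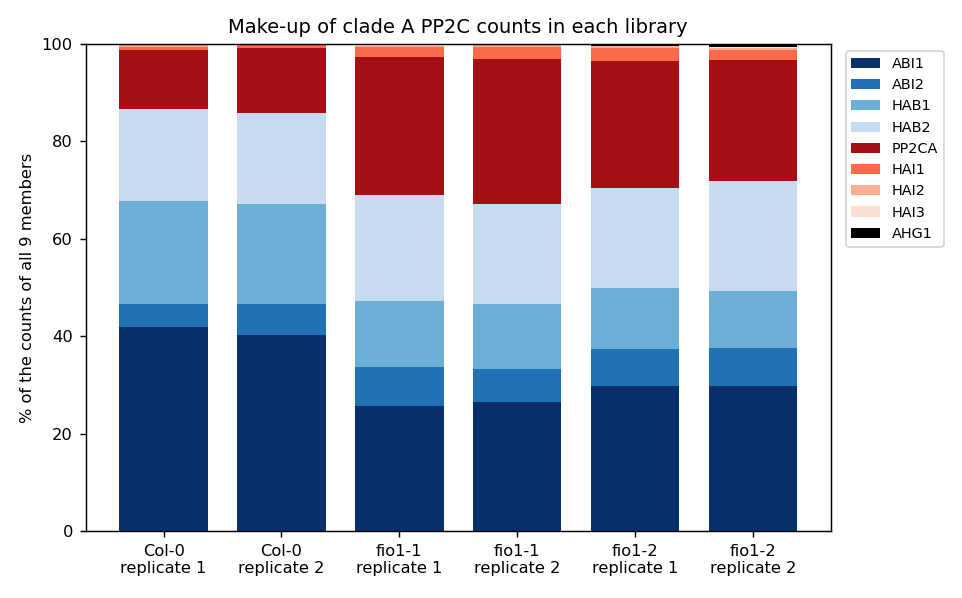
Share of each member in the raw counts of all 9 clade A PP2C genes in each library, as stacked bars from 0 to 100%. Blue shades are *ABI1*, *ABI2*, *HAB1* and *HAB2*, which made up 85.9% to 86.8% in the wild-type libraries and 67.2% to 71.8% in the mutant libraries. The dark red segment, *PP2CA*, went from 11.99% and 13.2% in wild type to 24.8% to 29.8% in the mutants.

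The mutants were compared directly, to ask whether both alleles left the family in the same state. *ABI1* was higher in *fio1-2* than in *fio1-1* by 0.51 on the log2 scale (SE 0.0834, adjusted p = 1.55e-06) and *HAB2* by 0.35 (SE 0.0931, adjusted p = 0.00393). *ABI2* was 0.39 higher but did not pass (95% CI 0.08 to 0.70, adjusted p = 0.0743). For *PP2CA* (0.12, 95% CI -0.04 to 0.29, adjusted p = 0.350), *HAB1* (0.15, -0.09 to 0.38, adjusted p = 0.445) and *HAI1* (0.33, -0.23 to 0.90, adjusted p = 0.475) no difference between the alleles was established, and the intervals still allow differences of those sizes. Of the 6 tested members 2 passed as higher and 0 as lower in *fio1-2*, where 9.31% and 8.76% of all tested genes did, and 3 had an unadjusted p under 0.05. No tested member was called with limma-voom, edgeR or DESeq2, where 2.68% of all genes were with limma-voom. The median was 0.34 beside -0.0019 for all tested genes. The *HAB2* difference did not pass with DESeq2 (adjusted p = 0.0754) or without *fio1-2* replicate 2 (0.28, adjusted p = 0.0879 from limma-voom).

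Upstream of the phosphatases stand the ABA receptors. Of 14 listed receptor genes 9 could be tested, and 3 passed as higher and 2 as lower in *fio1-1*, against 1 and 3 in *fio1-2*. The shares over all tested genes were 14.2% and 14.3%, and 16.4% and 16.1%. With only 9 receptors, whether the counts differ from these shares was not tested. The receptors had median log2 fold changes of -0.03 and -0.24. *PYL4* was at 65.4 and 58.8 CPM in wild type, compared with 105.8 and 99.8 in *fio1-1* and 67.9 and 71.7 in *fio1-2*. It was clearly higher in *fio1-1* (0.73, adjusted p = 2.69e-14) and barely so in *fio1-2* (0.18, adjusted p = 0.0490). *PYL5* rose in *fio1-1* (0.24, adjusted p = 0.00389) and fell in *fio1-2* (-0.41, adjusted p = 4.13e-06), and *PYR1* rose in *fio1-1* (0.41, adjusted p = 1.33e-05) but not detectably in *fio1-2* (0.05, adjusted p = 0.678). Each of these 3 receptors was lower in *fio1-2* than in *fio1-1*, by 0.36 to 0.65 on the log2 scale. Of the 9 tested receptors 4 passed in that direction and 0 in the other, where 8.76% and 9.31% of all tested genes did.

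The SnRK2 kinases of subclass III are the substrates that clade A PP2Cs hold inactive. *SNRK2.3* rose in *fio1-1* (0.52, adjusted p = 9.42e-06) and *fio1-2* (0.47, adjusted p = 4.08e-05), from 33.3 CPM in wild type to 48.2 and 46.1 CPM. *SNRK2.6*, the guard cell kinase OST1, rose in *fio1-1* (0.48, adjusted p = 1.68e-04) and was at 0.12 (adjusted p = 0.426) in *fio1-2*. *SNRK2.2* did not pass in either (-0.09 and -0.08). Further down, of 5 bZIP factors that bind the ABA-responsive element, 1 rose and 4 fell in *fio1-1*, and 1 rose and 1 fell in *fio1-2*. Over all tested genes 14.2% rose and 14.3% fell in *fio1-1*, and 16.4% and 16.1% in *fio1-2*. The factor that rose in both was *ABF3* (0.39, adjusted p = 0.00306, and 0.77, adjusted p = 1.44e-09). *ABF2* fell in both (-0.73 and -0.31), and *ABF4* fell in *fio1-1* (-0.51, adjusted p = 1.99e-05) and was at -0.11 (adjusted p = 0.341) in *fio1-2*. Of the 4 that fell in *fio1-1*, *ABI5* passed only just (-0.80, adjusted p = 0.0498 from limma-voom). It had 62 and 38 reads in wild type, 26 and 29 in *fio1-1* and 42 and 89 in *fio1-2*. Between the mutants, all 5 factors passed as higher in *fio1-2*, where 9.31% of all tested genes did.

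Genes that make and remove ABA also differed. Of 10 synthesis genes 6 were tested, and 0 rose and 3 fell in *fio1-1* with limma-voom, while 1 rose and 2 fell in *fio1-2*. Over all tested genes 14.2% rose and 14.3% fell in *fio1-1*, and 16.4% and 16.1% in *fio1-2*. *AAO3*, the aldehyde oxidase of the last step, fell in both, from 33.9 and 31.7 CPM to 17.0 and 19.9 in *fio1-1* (-0.83, adjusted p = 1.38e-08) and to 21.1 and 18.8 in *fio1-2* (-0.73, adjusted p = 7.23e-08). *ABA1*, the zeaxanthin epoxidase, fell by 0.18 and 0.19 on the log2 scale (adjusted p = 0.0138 and 0.00486). *NCED3*, the dioxygenase that limits synthesis in drought, was called higher in *fio1-2* (1.31, adjusted p = 0.00698), at 2.87 and 3.98 CPM against 1.94 and 0.962 in wild type, and was at -0.14 (adjusted p = 0.867) in *fio1-1*. ABA is broken down by 8′-hydroxylases, and of the 4 genes for these *CYP707A1* and *CYP707A3* were called higher in both mutants and *CYP707A2* was called lower in both. *CYP707A1* went from 4.38 CPM in wild type to 9.93 in *fio1-1* and 9.20 in *fio1-2* (1.19 and 1.08), and *CYP707A3* from 3.98 to 10.3 and 9.69 (1.40 and 1.33). *CYP707A2*, the main form of seeds, went from 8.23 to 2.23 and 2.94 CPM (-1.86 and -1.5). *CYP707A4* did not pass against wild type and was called higher in *fio1-2* than in *fio1-1* (1.61, adjusted p = 0.0158), at 1.82 and 2.296 against 0.695 and 0.596 CPM.

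Genes listed as ABA-responsive in vegetative tissue were mostly higher in the mutants, though not as a block. Whether ABA had a part in this was not tested. Of 18 listed ABA-responsive genes, all of them tested, 11 rose and 3 fell in *fio1-1*, and 12 rose and 2 fell in *fio1-2*. Over all tested genes 14.2% rose and 14.3% fell in the former and 16.4% and 16.1% in the latter. The median log2 fold changes were 0.50 and 0.96, beside 0.0075 and 0.0027 for all tested genes. Called higher were 7 genes in *fio1-1* and 9 in *fio1-2*, where 4.91% and 5.93% of all tested genes were called in either direction. *RAB18*, a dehydrin gene, was at 23.8 and 24.2 CPM in Col-0, next to 56.3 and 56.4 CPM in *fio1-1* and 79.6 and 70.5 in *fio1-2* (1.23, adjusted p = 3.09e-17, and 1.63, adjusted p = 3.60e-24). *RD29B* rose from 2.04 and 2.89 CPM to 7.74 and 9.73 in *fio1-1* and 19.1 and 15.5 in *fio1-2* (1.81 and 2.77), and its neighbour *RD29A* rose by less than 2-fold in *fio1-1* and by more in *fio1-2* (0.43 and 1.19).

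*COR15A*, which encodes a chloroplast protein of cold tolerance, went from 18.1 CPM in wild type to 81.5 in *fio1-1* and 85.9 in *fio1-2* (2.17 and 2.24). *KIN1* and *KIN2* rose in both (2.07 and 1.56, and 1.44 and 1.65), but they are near-identical neighbours. How reads that match both genes were counted is not stated, so their separate levels are uncertain. *RD20*, a caleosin gene, rose in both (1.24 and 1.68), as did *GOLS2*, a galactinol synthase gene with at most 4.11 CPM in any library (2.75 and 3.99). *GOLS2* had 0 and 5 reads in wild type, 7 and 16 in *fio1-1* and 43 and 23 in *fio1-2*. It passed the filter on low counts only through *fio1-2*. Its place among the genes called higher in both mutants is thus not independent of that filter. *P5CS1*, the key enzyme of proline synthesis, rose by 0.58 and 1.02. *RD26*, a NAC factor induced by drought, went the other way, from 39.5 and 38.0 CPM to 15.3 and 13.2 in *fio1-1*, where it was called lower (-1.44, adjusted p = 2.40e-16), and to 21.5 and 21.1 in *fio1-2* (-0.86, adjusted p = 8.89e-11). The senescence factor *NAP* passed only between the mutants (1.45 higher in *fio1-2*, adjusted p = 0.0125). Between the mutants 10 of the 18 were higher in *fio1-2* and 3 lower, where 9.31% and 8.76% of all tested genes were. The median was 0.44 beside -0.0019 for all tested genes. The summed seed and root markers given above were also higher in *fio1-2*, the root sum mostly through *BGLU23*. Several of the ABA-responsive genes are active in seeds too, and the part of these shifts in their levels was not tested.

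**Figure D5:**
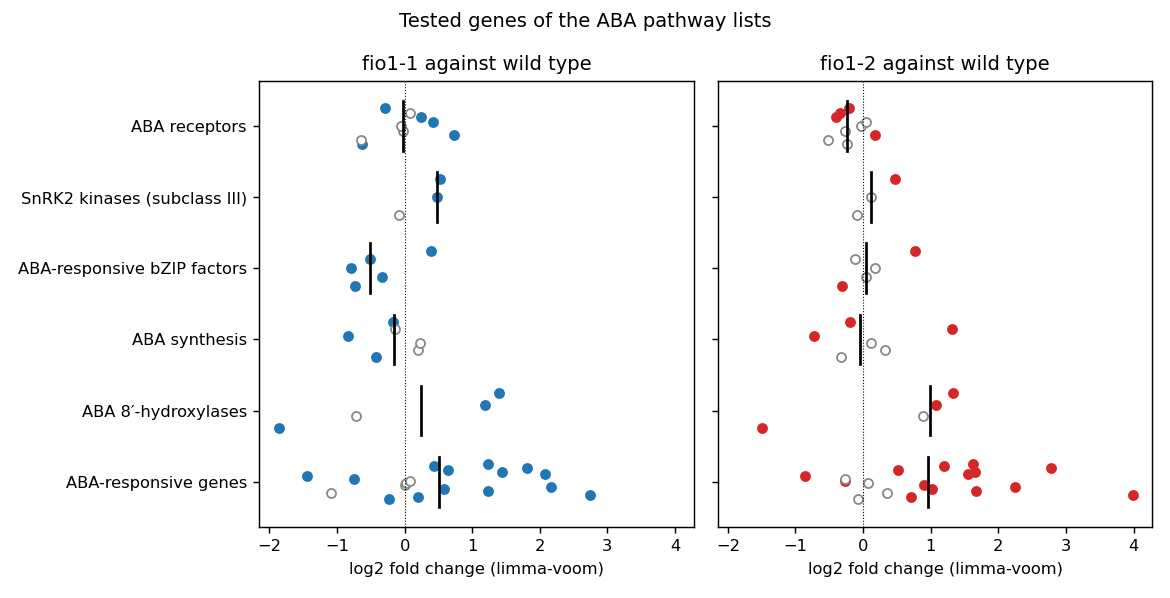
Log2 fold changes from limma-voom (horizontal axis) of the tested genes of 6 ABA pathway lists in *fio1-1* (left) and *fio1-2* (right) against wild type. Each point is a gene, filled where the adjusted p was under 0.05 and open where it was not, and the black bar is the median of the list. ABA-responsive genes have their median at 0.50 and 0.96, and receptors at -0.03 and -0.24.

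Among the other genes that TAIR10.1 annotates as PP2Cs, 53 of 61 could be tested, and 12 passed as higher and 6 as lower in *fio1-1* (14.2% and 14.3% of all tested genes did), and 11 and 8 in *fio1-2* (16.4% and 16.1% of all). The median log2 fold changes were 0.08 and -0.04. Of the genes called against wild type, the 3 with the largest changes were AT4G11040, AT5G66080 and AT3G16800. AT4G11040 (*RDO5*), known for its role in seed dormancy, had no read in either wild-type library, 3 in *fio1-1* and 61 in *fio1-2*. It passed the filter on low counts only through *fio1-2*, so its place among the largest changes is not independent of that filter. Its level in *fio1-2* was at least 17.4-fold higher than a floor of 3 reads over the wild-type libraries. AT5G66080 (*APD9*, clade D) rose from 4.09 and 3.27 CPM to 13.4 and 15.9 in *fio1-1* and 15.2 and 13.5 in *fio1-2* (1.99, adjusted p = 6.87e-11, and 1.95, adjusted p = 7.65e-11). AT3G16800 rose from 6.75 and 8.75 CPM to 17.0 and 19.0 and to 24.2 and 25.03 (1.21 and 1.67, adjusted p = 1.78e-08 and 5.82e-14).

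For *HAI1*, the member called against wild type, the 3 genes with the most similar profile were sought among 20689 genes with a mean of at least 1 CPM by Pearson's r of log2 CPM over the 6 libraries. They were AT3G41761, a non-coding RNA gene (r = 0.999) at 0.204 and 0.385 CPM in wild type and at most 1.72 CPM in any library, *ABCG14*, a transporter of cytokinin (r = 0.998), and AT5G55550, which encodes an RNA-binding protein (r = 0.997). *ABCG14* was at 14.5 and 18.6 CPM in wild type, compared with 27.4 and 31.3 in *fio1-1* and 36.1 and 33.5 in *fio1-2*. Over only 6 libraries in 3 genotypes such values are easily reached among so many genes, and they are given as a description.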

How the data were processed

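The deposited count files hold raw read counts per gene, 1 file per library. To make them, the authors used Trim Galore 0.6.3 for trimming, aligned to TAIR10 with HISAT2 2.1.0 and counted reads per gene with HTSeq 0.9.1 (versions from the submitters' processing notes). Whether counting used strand is not given in the sources used here. The authors' 2 tables of limma-voom fold changes and p-values were not used.

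Counts were analysed with limma 3.58.1, edgeR 4.0.16 and DESeq2 1.42.0 in R 4.3.3. Genes passing filterByExpr of edgeR (minimum count 10) were kept, TMM factors were computed, and all 6 libraries were fitted jointly by limma-voom, with genotype as the only term and 3 residual degrees of freedom. This follows the test and thresholds of the study. Members below the filter are given as ratios of summed counts with exact 95% intervals, which cover counting error only. The study names the samples biological replicates. P-values set a difference against the spread between these libraries, which was moderated for each gene towards a spread pooled over all tested genes. Replicates of a genotype differed by more than sampling noise. The fits were tested on simulated counts.

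The members and gene lists were chosen with earlier results of these data known. Named genes were all 9 members and all genes of a pathway list called in any comparison. Lists were filled up to 3 by the smallest adjusted p against wild type. Also named were 3 genes like each called member, with a mean of at least 1 CPM. So were the 3 other PP2C genes with the largest change among those called against wild type. *ABI5* was named besides, as its adjusted p lay at the threshold. Seed, root, leaf, guard cell and flower genes were used as markers only, as sums or as single genes. Coordinates, exon lengths and sequences come from RefSeq TAIR10.1, matched by locus, whereas the count files carry no coordinates. Proteins were translated from the longest coding sequence of each gene and aligned with MAFFT 7.526. Alternatives were 3 other scalings, no filter, edgeR quasi-likelihood, DESeq2, limma-trend, a robust prior, sample weights, the compared groups alone, a replicate block, and leaving out each library.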

Additional observations from a re-analysis of the deposited data

Results flagged for a closer look

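The response of *ABI1* and of *HAB2* differed between the 2 mutants by the direct test of *fio1-2* against *fio1-1*, which is the difference of their changes against the shared wild type. For *ABI1* it was 0.51 on the log2 scale (adjusted p = 1.55e-06 from limma-voom), with both *fio1-2* libraries above both *fio1-1* libraries. For *HAB2* it was 0.35 (adjusted p = 0.00393), again without overlap, but it did not pass with DESeq2 (adjusted p = 0.0754) or without *fio1-2* replicate 2 (0.28, adjusted p = 0.0879). *HAB2* lay below wild type in both *fio1-1* libraries and above it in both *fio1-2* libraries, although neither mutant passed the test against wild type.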

How the results depend on the processing

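Over 17 alternatives, 297 of 306 values of the 6 tested members kept their direction and their side of the adjusted p, 8 lost the threshold and 1 changed sign (*ABI2* in *fio1-1*, -0.12 without wild-type replicate 1, within a range of -0.12 to 0.31 over the libraries left out). Counts of called members moved with *ABI1* and *PP2CA*, which lie next to the 2-fold limit, with *HAI1* and, without the filter, with *AHG1*. In *fio1-1* 2 were called with total counts alone and 0 to 2 when a library was left out. In *fio1-2* 2 were called with upper-quartile scaling, 2 without the filter and 1 to 2 when a library was left out. Between the mutants 1 was called without the filter, and 1 member passed the adjusted p with DESeq2 and 1 to 2 when a library was left out. Without the filter *AHG1* was called in *fio1-2* against wild type (fitted log2 fold change 3.26, adjusted p = 0.00152) and against *fio1-1* (2.09, adjusted p = 0.0381), and *HAI2* and *HAI3* did not pass. The summed level in Col-0 was 177.7 CPM with upper-quartile scaling and 181.4 with total counts. Replicate numbers did not pair the libraries (correlations of deviations -0.03 to 0.0003), and with the replicate block 4, 5 and 2 members passed in the 3 comparisons, as without it. Depth limits what can be said of *HAI2*, *HAI3* and *AHG1*, which had at most 13 reads in a library.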
